A study of Mus musculus with 10 samples.

Results

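The contactins and the contactin-associated proteins are adhesion molecules of the neuronal surface, and their genes were followed here in RNA-seq libraries of intratelencephalic projection neurons (IT-PNs) of the mouse motor cortex. The members were taken by gene name, as 6 contactin genes (*Cntn1*, *Cntn2*, *Cntn3*, *Cntn4*, *Cntn5* and *Cntn6*) and 4 genes of contactin-associated proteins (*Cntnap1*, *Cntnap2*, *Cntnap4* and *Cntnap5a*). These are 10 of the 24453 genes in the count table, which holds 13 genes of both families. The other 3, *Cntnap3*, *Cntnap5b* and *Cntnap5c*, are described beside them.

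Contactins carry immunoglobulin and fibronectin domains and are held in the membrane by a lipid anchor, whereas contactin-associated proteins (Caspr proteins) span the membrane and resemble neurexins. In myelinated axons, the products of *Cntn1* and *Cntnap1* form a complex at the paranode, the junction between axon and myelin beside the node of Ranvier. The products of *Cntn2* and *Cntnap2* form another at the juxtaparanode, where they hold potassium channels. The remaining contactins are known mainly from neurite growth and synapse formation.

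The libraries came from male mice on the Swiss Webster background, hemizygous for the *Fezf2-Gfp* reporter, in which regulatory sequence of *Fezf2* drives GFP. A fluorescent cholera toxin subunit B (CTB) tracer was injected into the left primary motor cortex at postnatal day 23 to 25, and cells of layer 5 on the opposite side were collected at postnatal day 28 to 32. Cells with GFP and tracer were sorted as *Fezf2+ve* IT-PNs and cells with tracer alone as *Fezf2−ve* IT-PNs, with no treatment that differed between them. Each of 5 animals gave 1 library of each type, so that there were 5 libraries per type and 10 in all, and the sample records give a mean of 11280 sorted cells for the *Fezf2+ve* and 2688 for the *Fezf2−ve* samples. The study's text gives a higher mean for the *Fezf2−ve* samples, and a minimum per sample that lies above the mean of the records, so the number from the records is uncertain. The types are thus defined by a transgenic reporter and by uptake of the tracer.

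Reads counted on genes numbered 118134, 107643, 118069, 151591 and 203379 in *Fezf2+ve* libraries of animals 1 to 5, and 167916, 89138, 168711, 211368 and 217738 in *Fezf2−ve* libraries. A gene was taken as detected from 3 reads upwards, a floor of 13.8 to 33.7 CPM (counts scaled to a common library total) that covers counting error only, since amplified reads carried no molecular identifiers and several can stem from 1 molecule. The number of genes with any read was 3990 to 7918 per library. Much of the depth lay on few genes, since 13.3 to 57.1% of the reads fell on a library's top 10.

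The label of the cells was compared with marker lists before the members were examined. Of 10 markers of excitatory projection neurons 9 had a read, but their summed level was low, at 313, 121, 127, 6.60 and 68.8 CPM in *Fezf2+ve* libraries of animals 1 to 5, and 77.4, 56.1, 3272, 37.9 and 4.59 CPM in *Fezf2−ve* libraries. *Camk2a*, the most abundant, had 529 of its 588 reads in 1 library, *Fezf2−ve* library 3. The defining genes *Tbr1*, *Fezf2*, *Bcl11b*, *Neurod2* and *Neurod6* had 0, 1, 1, 2 and 2 reads in all 10 libraries, and *Slc17a7*, the vesicular glutamate transporter of cortical projection neurons, had 0 to 3 per library. The deposited counts thus hold next to no reads of the genes that define these neurons, and the names of the types are used here for the sorted samples. The study's text reports other evidence for the types. By RT-PCR, endogenous *Fezf2* was amplified from the *Fezf2+ve* and not from the *Fezf2−ve* samples, and its top expressed genes carried neuronal terms. Of 8 interneuron markers, *Slc32a1*, *Pvalb*, *Vip* and *Lhx6* had 0 reads, the list reached at most 44.9 CPM, and *Npy*, its most abundant gene, had 7 reads.

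Markers of several other cell types were found as well. All 12 microglial markers were detected, and their sum was 203, 130, 50.8, 52.8 and 118 CPM in *Fezf2+ve* libraries and 6509, 4106, 5281, 1949 and 3931 CPM in *Fezf2−ve* libraries, higher in the *Fezf2−ve* library of 5 of 5 animals. *Ctss* was the most abundant of them, with 817 reads. Of 10 oligodendrocyte markers all but *Opalin* had a read, and their sum was 686, 4143, 407, 85.8 and 334 CPM in *Fezf2+ve* and 935, 370, 178, 80.4 and 101 CPM in *Fezf2−ve* libraries, led by *Mbp* with 557 reads. All 6 markers of oligodendrocyte precursors were detected, at 1786, 3224, 508, 85.8 and 708 CPM in *Fezf2+ve* and 1137, 808, 960, 133 and 1116 CPM in *Fezf2−ve* libraries, with *Pdgfra* the most abundant. Of 8 astrocyte markers all but *Gfap* had a read. Their sum was 779, 7683, 703, 1682 and 477 CPM in *Fezf2+ve* and 792, 236, 94.8, 3804 and 41.3 CPM in *Fezf2−ve* libraries, led by *Slc1a2*. The 6 endothelial markers summed to 8.47 to 67.8 CPM per library, led by *Flt1*. The microglial list is the one of these 7 whose types did not overlap. Contactins are also made by glia, and in bulk samples fewer cells of a type and less RNA per cell cannot be told apart, so the part of these cell types in the members' values was not tested.

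**Figure D1:**
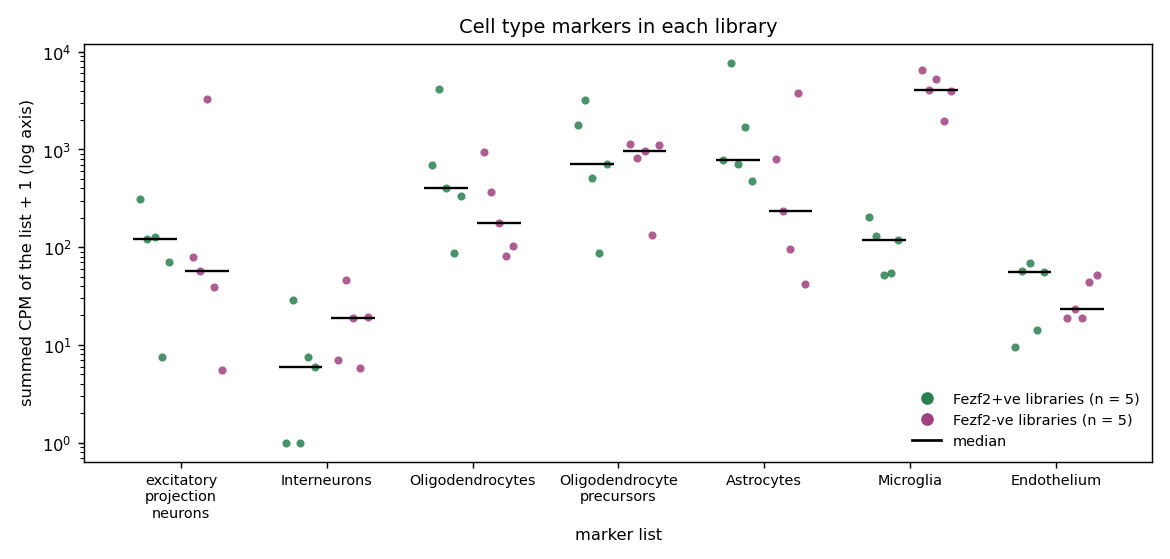
Summed CPM of each marker list plus 1, on a log axis, for each of the 5 Fezf2+ve and 5 Fezf2-ve libraries, with black lines at the medians. The microglial list lies at 50.8 to 203 CPM in the Fezf2+ve and 1949 to 6509 CPM in the Fezf2-ve libraries, and the interneuron list lies at or under 44.9 CPM.

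Together the 10 members had 2995 reads, of which *Cntn1* had 50.3%, *Cntn6* 26.3%, *Cntnap2* 9.92% and *Cntn4* 7.41%. Per library they had 24, 46, 676, 1216 and 213 reads in *Fezf2+ve* and 457, 46, 97, 28 and 192 reads in *Fezf2−ve* samples of animals 1 to 5. Members made up between 0.0133 and 0.802% of a library's reads. The high sums came from few genes, as *Cntn1* was the leading member in *Fezf2+ve* libraries 3 and 5 and in *Fezf2−ve* library 1, *Cntn6* in *Fezf2+ve* library 4, and *Cntnap2* in *Fezf2−ve* library 5. Without *Cntn1* and *Cntn6*, the other 8 members had 348 reads in *Fezf2+ve* and 353 in *Fezf2−ve* libraries. Between 3 and 8 members reached 3 reads in a library. Of the 10 members, 8 had at least 10 CPM in at least 2 libraries and were tested, and *Cntn2* and *Cntnap1* did not.

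Of the paranodal pair, *Cntn1* (chr15:92051165-92341967, plus strand of GRCm38, which is mm10) was the member with the most reads. It had 6, 4, 491, 440 and 132 reads in *Fezf2+ve* libraries of animals 1 to 5, and 422, 1, 5, 1 and 4 reads in *Fezf2−ve* libraries. The libraries thus fell into 4 with at least 132 reads and 6 with at most 6, and the high ones were *Fezf2+ve* libraries 3, 4 and 5 and *Fezf2−ve* library 1. Normalized by TMM, the mean was 1891 ± 2297 CPM (SD, n = 5) in *Fezf2+ve* and 440 ± 950 CPM (SD, n = 5) in *Fezf2−ve* libraries, and the groups overlapped. *Cntn1* was higher in the *Fezf2+ve* library of 4 animals and in the *Fezf2−ve* library of animal 1. On the log2(CPM + 1) scale the level was 8.83 ± 3.47 (SD, n = 5) and 5.33 ± 3.28 (SD, n = 5). The mean paired difference was 3.50 ± 5.73 (SD, n = 5 animals, exact paired permutation test, two-sided, p = 0.25, where 0.063 is the lowest p that 5 animals allow).

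The partner of *Cntn1* at the paranode, *Cntnap1* (chr11:101170523-101190724, plus strand), had 1 read in each of *Fezf2+ve* libraries 1 and 3 and 0 reads in the other 8. It was therefore not detected at this depth, and no fold change is given.

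Of the juxtaparanodal pair, *Cntn2* (chr1:132509427-132543256, minus strand) had 1 read, in *Fezf2+ve* library 2, and was not detected either. *Cntnap2* (chr6:45059357-47304213, plus strand), one of the longest genes of the mouse, had 2, 18, 18, 21 and 27 reads in *Fezf2+ve* and 11, 17, 37, 5 and 141 reads in *Fezf2−ve* libraries of animals 1 to 5. It thus reached the floor of 3 reads in 9 libraries, with its lowest value in *Fezf2+ve* library 1 and its highest in *Fezf2−ve* library 5, which held 47.5% of its reads. The TMM-normalized mean was 134 ± 83.6 CPM (SD, n = 5) in *Fezf2+ve* and 241 ± 309 CPM (SD, n = 5) in *Fezf2−ve* libraries. *Cntnap2* was higher in the *Fezf2−ve* library of 4 of 5 animals (exact paired permutation test, two-sided, p = 0.688), with overlapping groups.

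*Cntn6* (chr6:104492790-104863406, plus strand), a contactin known from synapse formation, had 7, 4, 5, 731 and 7 reads in *Fezf2+ve* and 8, 7, 6, 7 and 6 reads in *Fezf2−ve* libraries. *Fezf2+ve* library 4 alone held 92.8% of its 788 reads, and the other 9 libraries were alike, at 4 to 8 reads each. Its mean of 1753 ± 3829 CPM (SD, n = 5) in *Fezf2+ve* libraries, against 43.5 ± 13.4 CPM (SD, n = 5) in *Fezf2−ve* libraries, therefore is the value of that library rather than of the type. The mean paired difference in level was 1.44 ± 3.34 (SD, n = 5 animals, exact paired permutation test, two-sided, p = 0.563), and *Fezf2+ve* was higher in 4 of 5 animals.

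*Cntn4* (chr6:105677660-106699310, plus strand), whose product binds the amyloid precursor protein, had 5, 2, 129, 14 and 14 reads in *Fezf2+ve* and 10, 9, 25, 5 and 9 reads in *Fezf2−ve* libraries. It was high in *Fezf2+ve* library 3, with 58.1% of its reads, and its *Fezf2−ve* values lay within the range of the *Fezf2+ve* ones. The means were 239 ± 369 CPM (SD, n = 5) and 67.7 ± 33.3 CPM (SD, n = 5) after TMM normalization, and 3 of 5 animals were higher in *Fezf2+ve* (exact paired permutation test, two-sided, p = 0.5).

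The remaining members had few reads in every library. *Cntn5* (chr9:9660891-10904775, minus strand) had 1 to 18 reads in *Fezf2+ve* and 2 to 15 in *Fezf2−ve* libraries, and *Cntn3* (chr6:102162655-102573101, minus strand) had 0 to 4 in both types. Both are contactins of neurite growth, and in both the groups overlapped. *Cntnap4* (chr8:112570043-112882717, plus strand), a Caspr protein known from interneuron synapses, had 1, 8, 13, 2 and 1 reads in *Fezf2+ve* and 3, 0, 3, 2 and 7 in *Fezf2−ve* libraries. *Cntnap5a* (chr1:115684756-116587323, plus strand) had 1, 4, 9, 2 and 11 reads in *Fezf2+ve* and 1, 1, 9, 4 and 6 in *Fezf2−ve* libraries. After TMM normalization *Cntnap5a* was higher in the *Fezf2+ve* library of 4 of 5 animals, with levels of 4.93 ± 1.18 (SD, n = 5) and 4.29 ± 1.27 (SD, n = 5) on the log2(CPM + 1) scale (exact paired permutation test, two-sided, p = 0.125).

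**Figure D2:**
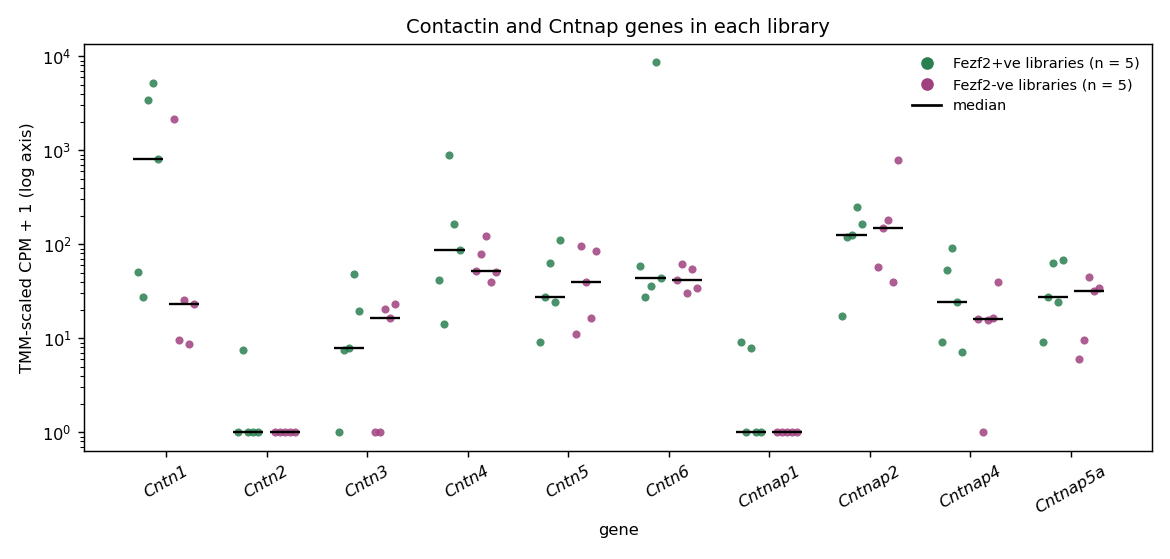
TMM-scaled CPM plus 1, on a log axis, of the 10 members in each of the 5 Fezf2+ve and 5 Fezf2-ve libraries, with black lines at the medians. Cntn1 is split into 4 high and 6 low libraries, Cntn6 is high in 1 library, and the groups overlap for each member.

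Of the family genes outside the members, *Cntnap5b* had 124, 14, 40, 7 and 3 reads in *Fezf2+ve* and 28, 9, 35, 6 and 42 reads in *Fezf2−ve* libraries of animals 1 to 5. *Cntnap5c* had 2 to 17 reads in *Fezf2+ve* and 1 to 17 in *Fezf2−ve* libraries. Of these close relatives of *Cntnap5a*, *Cntnap5b* thus reached the floor of 3 reads in all 10 libraries and *Cntnap5c* in 8, 4 of each type. *Cntnap3* had 0 reads in *Fezf2+ve* libraries and 3, 0, 1, 1 and 2 reads in *Fezf2−ve* libraries, which is at or under the floor in each. Reads that match several *Cntnap5* genes could be split by the mapping, so the values of these related genes are uncertain.

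Levels of different genes were compared per length, as a description. The library method primes at the end of transcripts, and for reads of that end alone a level would need no correction for length. Reads had been counted over gene intervals, however, introns included, and merged exons made up 0.364 to 29.1% of the span of a member. The study's text reports high rates of mapping to introns in both types. The share of a member's reads that lay in introns cannot be told from these counts, so neither scale is sure. As CPM per 100 kb of gene span (means of 10 libraries from library totals), *Cntn1* had 357 ± 534 (SD, n = 10), *Cntn6* 141 ± 408 and *Cntn4* 16.5 ± 32.0. Their medians over the libraries were 15.1, 10.7 and 6.28, so that both high means rest on the few high libraries named above. *Cntnap4* followed with 9.22 ± 11.4, *Cntnap1* with 8.38 ± 17.7, *Cntnap2* with 7.82 ± 7.98, *Cntn5* with 3.896 ± 3.198, *Cntnap5a* with 3.39 ± 2.64, *Cntn2* with 2.75 ± 8.68 and *Cntn3* with 2.69 ± 2.36 CPM per 100 kb (SD, n = 10). Neighbours in this order did not differ beyond their spread. The places of *Cntnap1* and *Cntn2* rest on 2 reads and 1 read. By medians *Cntnap2* (6.48) came before *Cntn4*, followed by *Cntnap4* (4.95), *Cntn5* (3.40), *Cntnap5a* (2.58) and *Cntn3* (2.28), with *Cntnap1* and *Cntn2* at 0.

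As a comparison chosen after seeing the data, genes of 2 receptor families known mainly from the nose were taken. Their absence from cortical neurons was not tested. The 333 vomeronasal receptor genes together had 5.23 ± 6.15 CPM per 100 kb (SD, n = 10 libraries; 0.797 to 22.1), with 389 reads, of which 100 lay on 1 gene. The 1113 olfactory receptor genes had 0.513 ± 0.414 CPM per 100 kb, with 67 reads. The means of *Cntn3*, *Cntn5* and *Cntnap5a* thus lay under the mean of the vomeronasal and above that of the olfactory receptor genes, with *Cntn2* and its 1 read left aside. The means of *Cntn4*, *Cntnap4*, *Cntnap1* and *Cntnap2* lay within the range of the vomeronasal receptor genes over the libraries. The median of the 6824 tested protein-coding genes was 42.4 CPM per 100 kb, taking each gene by its mean, and the means of *Cntn1* and *Cntn6* lay above those of 86.3 and 74.7% of these genes. Both means rest on few libraries, for *Cntn6* on 1 with 731 of its 788 reads. Spans were long for most members: each of the 8 that were tested was longer than at least 92.1% of those coding genes, and *Cntnap2* was longer than 99.9%. *Cntn2* and *Cntnap1*, the members with too few reads to be tested, were longer than 39.6 and 26.0% of them.

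**Figure D3:**
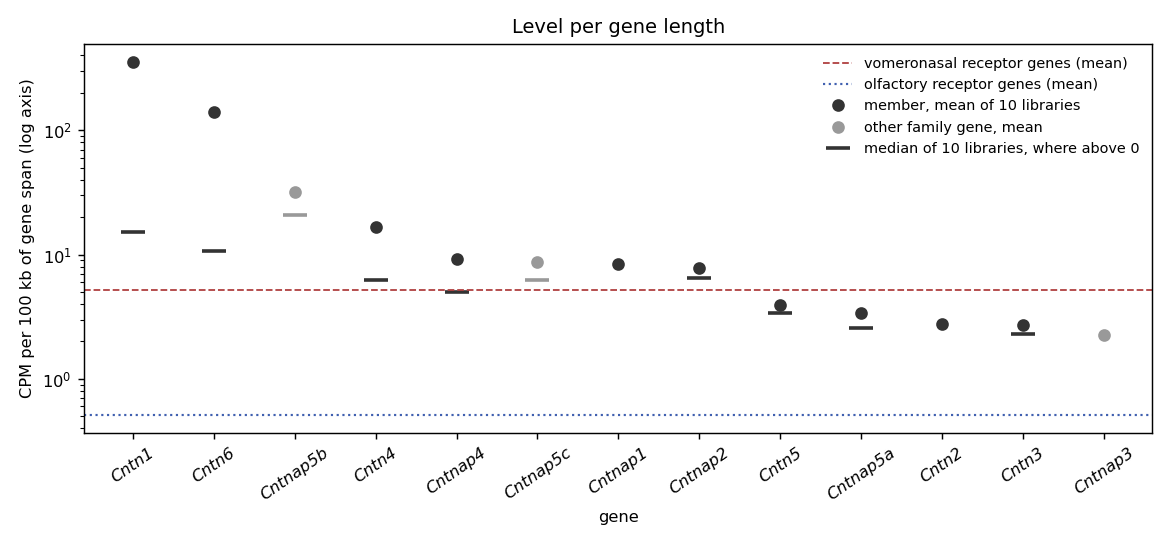
CPM per 100 kb of gene span, on a log axis, for the 10 members and the 3 other family genes, as the mean (points) and, where above 0, the median (bars) of 10 libraries. Dashed and dotted lines mark the means of vomeronasal (5.23) and olfactory (0.513) receptor genes, and Cntn1 (357) and Cntn6 (141) lie highest.

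The comparison of the types asked which genes differ between both sorted populations of an animal. None of the 8 tested members passed it. By edgeR's quasi-likelihood test, blocked by animal, the FDR was at or below 0.1 for 0 of the 7409 tested genes (0%), and 288 had an unadjusted p under 0.05, none of them a member. The groups did not overlap for 0 of the 8 tested members, against 108 of all tested genes (1.46%). Likewise, 0 of the 8 were higher in the same type in all 5 animals, against 304 of all tested genes (4.1%).

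The log2 fold change of *Fezf2+ve* over *Fezf2−ve* was 4.76 for *Cntn1* (standard error 2.36, adjusted p = 0.998, edgeR with Benjamini-Hochberg adjustment). For *Cntn6* it was 0.84 (standard error 1.33) and for *Cntn4* 0.72 (standard error 1.21), with the same adjusted p. The *Cntn4* value lay between 0.07 and 1.35 when single animals were omitted, and was 1.81 without the block. The log2 fold changes of *Cntnap4* (0.82), *Cntnap5a* (0.64), *Cntn3* (0.32), *Cntn5* (-0.07) and *Cntnap2* (-0.53) were each smaller than their standard errors, which were 0.98 to 1.44. The *Cntn1* estimate is thus the one member value above its error, but it was 2.098 without the block and 3.23 without animal 4, and the TMM-normalized means given above differ 4.29-fold. The members' median was 0.68, beside -0.16 over all tested genes. Fitted values were positive for 6 and negative for 2 of the 8, but those of *Cntn3*, *Cntn5*, *Cntn6* and *Cntnap4* changed sign when 1 animal was left out.

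Of the alternative fits to all 10 libraries, 2 called a member, each a different one, and the others called 0. Without the block, edgeR called 279 genes (3.77%) and 1 of the 8 tested members, *Cntn6*, at a log2 fold change of 5.31 (standard error 1.66, adjusted p = 0.0972, Benjamini-Hochberg). This call rests on *Fezf2+ve* library 4, as without animal 4 the log2 fold change of *Cntn6* was -0.04. Without animal 1, 2, 3 or 5 it was 5.39 to 5.72, although this fit then called 0 genes at all. With the legacy quasi-likelihood method and no block, which called 638 genes, *Cntn6* had an adjusted p of 0.12 (edgeR with Benjamini-Hochberg adjustment). DESeq2 with the animal as a block called 98 genes (1.32%) and 1 of the 8 tested members, *Cntn1*, at 4.60 (standard error 1.46, adjusted p = 0.0581, Benjamini-Hochberg). That call was lost without animal 3, 4 or 5 (adjusted p = 0.364, 0.212 and 0.205 at log2 fold changes of 3.18, 3.10 and 4.35, DESeq2) and held without animal 1 or 2 (0.00583 and 0.0192), while DESeq2 called 24 to 104 genes with 1 animal left out. The microglial markers, the oligodendrocyte markers and the depth given above differ between the same libraries, and their part in these values was not tested.

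**Figure D4:**
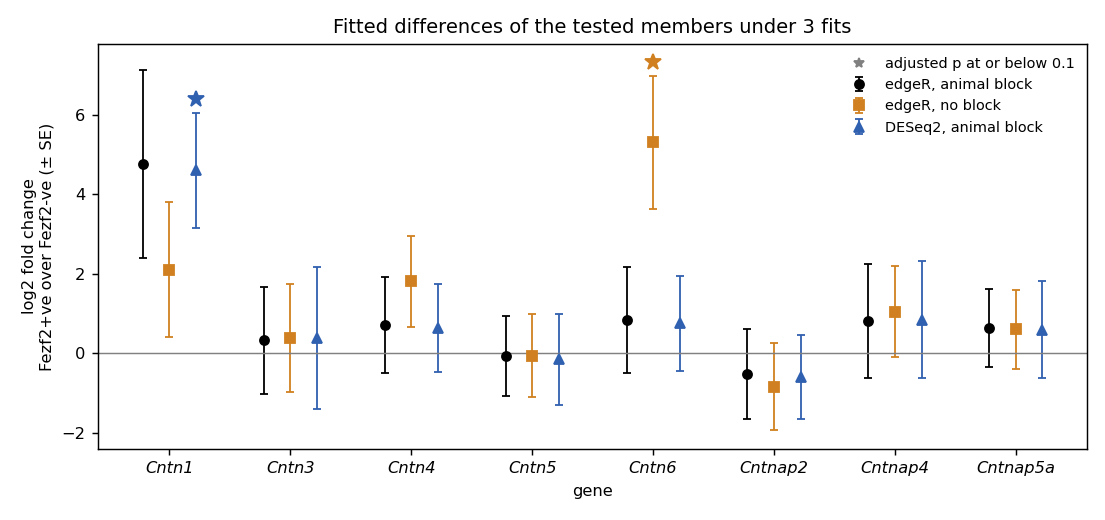
Log2 fold changes of Fezf2+ve over Fezf2-ve, with standard errors as bars, of the 8 tested members in 3 fits (edgeR with and without the animal as a block, and DESeq2 with it), with stars at an adjusted p at or below 0.1. Cntn6 is called without the block (5.31) and Cntn1 by DESeq2 (4.60), and no member is called by edgeR with the block.

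**Figure D5:**
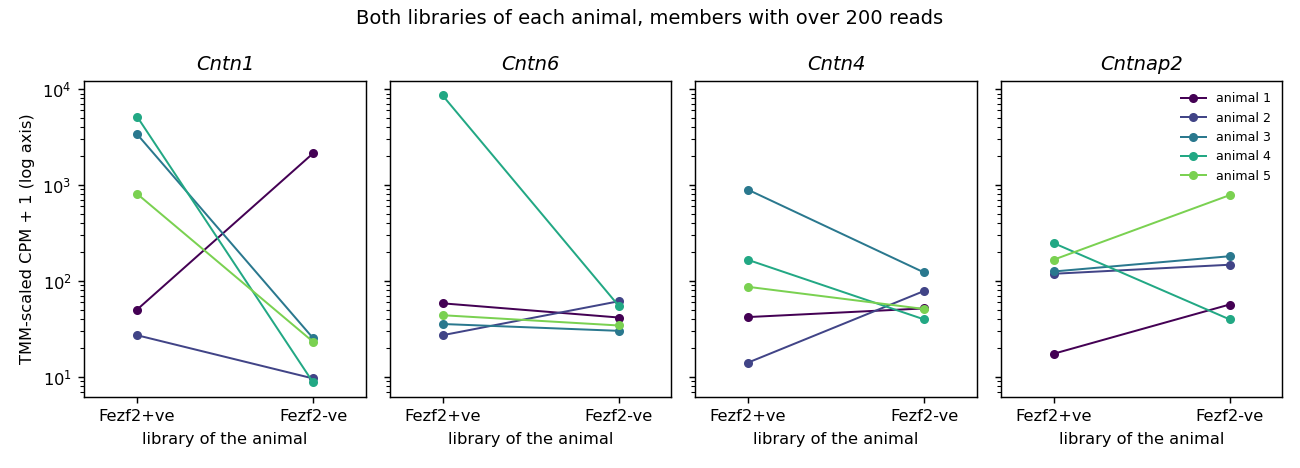
TMM-scaled CPM plus 1, on a log axis, of the 4 members with the most reads, with a line joining both libraries of each of the 5 animals. Cntn1 runs the other way in animal 1, and the high value of Cntn6 is that of animal 4.

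Single libraries held a large share of the reads of other genes as well. One library held more than 50% of the reads for 3285 of all tested genes (44.3%) and for 2 of the 8 tested members, *Cntn4* and *Cntn6*. Among the 1418 tested genes with at least 100 reads the median share of the top library was 76.7%, and for the 4 members of that depth (*Cntn1*, *Cntn4*, *Cntn6* and *Cntnap2*) it was 52.8%.

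The other genes of contactin and Caspr complexes were followed as a list of 35, which includes the 3 family genes named above. Of these 27 were tested, and 0 were called by edgeR with the block. Fitted values were higher in *Fezf2+ve* for 18 and in *Fezf2−ve* for 9, with a median log2 fold change of 0.41, beside 3388 and 4021 genes and a median of -0.16 over all tested genes. By group, 9 of 9 genes of the node and paranode, 5 of 9 of the juxtaparanode, 10 of 13 ligands and receptors and the scaffold *Cask* were tested. *Kcna1* and *Kcna4*, potassium channel subunits of the juxtaparanode, had 0 reads in every library, and *Kcna2*, another, had 2 reads in all, so that these subunits were not detected at this depth. Of the auxiliary subunits of such channels, *Kcnab1* had 37 reads and *Kcnab2* 16, and both were tested.

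Of this list, *Sptan1*, a spectrin of the axonal skeleton, had 2, 11, 7, 110 and 11 reads in *Fezf2+ve* and 8, 1, 0, 5 and 1 reads in *Fezf2−ve* libraries. On the log2 scale its fold change came to 3.21 (standard error 1.41, unadjusted p = 0.0338, adjusted p = 0.998, edgeR with Benjamini-Hochberg adjustment), and it was higher in the *Fezf2+ve* library of 4 of 5 animals. The *Sptan1* value lay between 2.46 and 4.14 when single animals were omitted. It was 3.94 without the block (adjusted p = 0.157, edgeR), and the adjusted p by DESeq2 was 0.136. The study's own comparison reported *Sptan1* as higher in *Fezf2+ve*, also by qPCR. *Nrcam*, an adhesion molecule of the node, had 329 of its 362 reads in *Fezf2+ve* library 2, and its fitted log2 value was 2.30 (standard error 1.54). The *Nrcam* value lay between 1.18 and 3.59 when single animals were omitted, and was 4.37 without the block. *Chl1*, an adhesion molecule of the L1 family, had 105 of its 140 reads in *Fezf2+ve* library 5, and its fitted log2 value was 1.67 (standard error 1.18). For *Chl1* the range with single animals omitted was 0.77 to 2.14, and the value without the block was 3.07. High values of these genes thus came from different animals.

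In the other direction, *Cask*, a scaffold that binds Caspr and neurexin proteins, had 12, 10, 7, 4 and 6 reads in *Fezf2+ve* and 40, 16, 99, 20 and 2901 reads in *Fezf2−ve* libraries. It was higher in the *Fezf2−ve* library of 5 of 5 animals, and on the log2 scale its fold change came to -2.59 (standard error 1.38, adjusted p = 0.998, edgeR with Benjamini-Hochberg adjustment). Genes overlapping *Cask* were not examined, and reads of such a gene would also be counted on *Cask*. The microglial markers were higher in the same type in 5 of 5 animals, and their part in the *Cask* values was not tested. *Cask* is the 1 gene of the list called without the block (adjusted p = 0.0931, edgeR with Benjamini-Hochberg adjustment), and DESeq2 called 0 of the list. With any 1 animal left out, the fit without the block called 0 genes at all. The loss of the *Cask* call there (adjusted p 0.177 to 0.32, edgeR) is thus not particular to *Cask*. By edgeR without the block the log2 fold change of *Cask* was -5.83 with all animals, -6.34 to -6.01 without animal 1, 2, 3 or 4, and -1.99 without animal 5. *Epb41l2*, a membrane skeleton protein, and *Ptpra*, a receptor phosphatase, had log2 fold changes of -1.69 (standard error 1.31) and -1.47 (standard error 1.77). *Ptpra* had 78.5% of its reads in *Fezf2−ve* library 3, and its value lay between -2.74 and -0.34 when single animals were omitted. *Epb41l2* had 40, 24, 329, 136 and 136 reads in *Fezf2−ve* libraries, of which 3 were high, and 19, 11, 11, 8 and 301 reads in *Fezf2+ve* libraries.

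Among ligands of the contactins, *Ptprg* varied between libraries of both types, and *Ptprz1* between *Fezf2−ve* libraries. *Ptprg*, the receptor phosphatase that binds several contactins, had 62 to 453 reads in *Fezf2+ve* and 32 to 1857 in *Fezf2−ve* libraries. *Ptprz1*, the phosphatase known as a ligand of *Cntn1*, had 10 to 13 reads in *Fezf2+ve* and 2 to 73 in *Fezf2−ve* libraries. Its 73 reads were in *Fezf2−ve* library 1, where *Cntn1* was high as well, whereas the other libraries with high *Cntn1* had 13, 12 and 10 reads of *Ptprz1*.

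The genes most like a member in their pattern were taken by Pearson's r of log2(CPM + 1) over the 10 libraries, among 7408 tested genes, as a description. For *Cntn1* these were *2610035D17Rik* (r = 0.953, Spearman's rho 0.819), *Tpi1* (r = 0.917, rho 0.912) and *Osbp* (r = 0.887, rho 0.792). They had at most 5, 9 and 11 reads in a library, so their patterns rest on few reads. For *Cntn6* they were *Arl15* (r = 0.987, rho 0.539), *Syncrip* (r = 0.985, rho 0.588) and *Nfib* (r = 0.971, rho 0.552), with 15618, 13000 and 1718 reads in *Fezf2+ve* library 4 and at most 55, 32 and 7 in any other. The r values of *Cntn6* thus come from that library. *Cntn1* and *Cntn6* had an r of 0.47 with each other (rho 0.127, n = 10).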

How the data were processed

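RNA-seq covered both types of IT-PN in 5 animals, 1 library each. Reads were mapped by the authors to mm10 (TopHat2 2.1.1) and counted on RefFlat genes (bedtools 2.26.0), and the deposited table holds these counts without normalization. Such counting adds a read to every gene it overlaps, and use of strand is not given in the sources used here. Genes overlapping a member had at most 3 reads in all. Overlaps of the partner genes were not examined. The authors also deposited the DESeq2 1.10.1 results of their own comparison (mean counts, fold changes and p-values), which were not used here. A table of counts on spiked-in ERCC RNAs held between 2.79 and 46.7% of the reads on ERCC RNAs and genes together, and entered no test.

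A gene needed 10 CPM in 2 or more libraries to be tested (7409 genes). Counts were normalized by TMM and tested with edgeR 4.0.16 in R 4.3.3 (glmQLFit with robust off and legacy off), blocked by animal, with p adjusted by Benjamini-Hochberg over all tested genes and an FDR of 0.1. Standard errors were calculated from the fold change and the F statistic. The installed version has the legacy method as its default. A first fit used that default, and legacy off was then set because earlier results of these data had been made with it. Both gave 0 calls with the block, and 638 (legacy) and 279 genes without it. The pairing comes from the sample records, by which both libraries of a number are from 1 animal. The deviations of paired libraries from the type means had correlations of -0.027 to 0.097. Single levels were compared by an exact permutation test of paired log2(CPM + 1) values. DESeq2 1.42.0 was an alternative, beside other size factors, filters, pseudocounts and lengths, a fit without the block, and leaving out each animal. The edgeR and DESeq2 steps were tried on simulated counts, and no result of that is reported here. Python 3.11.15 with pandas 2.3.3 was used for the rest. Positions and lengths are from GENCODE M21 on GRCm38, which held each of the 13 family genes.

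Genes were named by rule: all members, the other family genes, the 3 genes of the partner list with the smallest p in each direction, the 3 genes most correlated with each of the 2 members of highest mean CPM, and the markers a sentence needs. Some other partner genes (*Kcna1*, *Kcna2*, *Kcna4*, *Kcnab1*, *Kcnab2*, *Ptprg*, *Ptprz1*) were named after their values were seen. Members and lists were chosen with earlier results of these data known. One marker gene is not reported here and was left out of the sum of its list.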

Additional observations from a re-analysis of the deposited data

Results flagged for a closer look

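Among the levels, on the log2(CPM + 1) scale, of the 8 tested members in each type (16 sets of 5 libraries), 4 sets held a library far from the others, measured as the gap to the nearest library divided by the whole range, with 0.71 as the limit. Chance alone passes this limit in about 1 set in 20 for normally distributed values, and 18.3% of such sets passed it over all 7409 tested genes. For *Cntn6* in the *Fezf2+ve* libraries the ratio was 0.867, for the 731 reads of animal 4. For *Cntn1* in the *Fezf2−ve* libraries it was 0.807, for the 422 reads of animal 1. *Cntnap4* in the *Fezf2−ve* libraries had a ratio of 0.745, for the library of animal 2 with 0 reads. *Cntnap2* in the *Fezf2+ve* libraries had a ratio of 0.723, for the library of animal 1 with 2 reads. The low values of *Cntnap4* and *Cntnap2* lie under the floor of 3 reads.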

How the results depend on the processing

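With 0 genes, 0 members and 0 partner genes called by edgeR with the replicate block, the same was found with RLE size factors, unscaled library totals, a stricter or no filter, the legacy method (added after seeing the data) and without each animal. Without the replicate block edgeR called 279 genes, 1 member and 1 partner gene. The legacy method without the replicate block called 638 genes, 0 members and 0 partner genes. DESeq2 with the block called 98 genes, 1 member and 0 partner genes. The cause of these differences was not tested.

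Of 207 log2 fold changes of members and named partners under an alternative, 200 kept their direction and 7 reversed, all of the 7 with 1 animal left out. Leaving out each animal, they ranged from -0.18 to 0.91 for *Cntn3* (-0.01 without animal 2), from -0.32 to 0.35 for *Cntn5*, from -0.042 to 1.398 for *Cntn6*, from -0.0121 to 1.56 for *Cntnap4*, from -0.32 to 1.03 for *Cntnap5b* and from -0.16 to 0.78 for *Cntnap5c*. For *Cntn1* the range was 3.23 to 5.96, and under the other settings 2.098 (no replicate block, standard error 1.70, adjusted p = 0.566, edgeR) to 4.80. The *Cntn6* call without the replicate block was lost without each animal (adjusted p 0.177 to 0.992, edgeR), where this fit called 0 genes at all. The log2 fold change of *Cntn6* stayed at 5.39 to 5.72 except without animal 4. Members higher in 1 type in every animal numbered 0 with all animals and 0 to 2 with each left out: *Cntn1* without animal 1, *Cntn6* without animal 2, and *Cntnap5a* and *Cntnap2* without animal 4. Each of these was higher in that type in 4 of 5 animals, so the count follows from leaving out the other one. Of the mean paired differences in level, 5 changed sign with 1 animal left out: *Cntn6* to -0.02 without animal 4, *Cntnap2* to 0.02 without animal 5, and *Cntn3* to -0.02, *Cntn5* to 0.34 and *Cntnap4* to -0.05 without animal 2. By merged exon length *Cntn1* remained at rank 1. *Cntn2* and *Cntnap1* had too few reads to be tested except without a filter, and the depth of 89138 to 217738 reads limits every member with few reads.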
